A study of Mus musculus with 72 samples.

Results

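Bone morphogenetic proteins (BMPs) are secreted ligands of the TGF-beta family, and 9 of their ligand and receptor genes were examined in hearts and brains of Gnb5 mutant mice. The members were 6 ligands (Bmp2, Bmp4, Bmp5, Bmp6, Bmp7 and Bmp10) and 3 receptors (Bmpr1a, Bmpr1b and Bmpr2), that is 9 of the 53715 genes counted in each library. They were chosen by the counts of Bmp5 in atria, on a list of names drawn up because Bmp5, which lies on the same chromosome as Gnb5, was higher in the atria of Gnb5-/- mice than in those of Gnb5+/+ mice. The difference of Bmp5 in that contrast is therefore a description, given below without a test, and so are the values of the other members in it.

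The 18 mice sampled were males aged 18 weeks, with 6 animals of each genotype, Gnb5-/-, Gnb5+/- and Gnb5+/+. All carried a C57BL/6J background, and the mutant allele lacked exon 3 of Gnb5 in the germline, and hence in every cell. Both atria together and both ventricles together were taken from all 3 genotypes. The whole cerebellum, the hippocampi and the whole cerebral cortex were taken from the Gnb5-/- and Gnb5+/+ mice, which gave 72 libraries in 12 groups of 6. A replicate was a separate mouse, and the same mouse number in the labels joined the tissues of 1 animal. These were samples of whole tissue with many cell types. The atria contained sinoatrial and atrioventricular node cells beside heart muscle, and fewer cells of a type and less RNA per cell cannot be told apart.

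BMP ligands are secreted as dimers and bind a complex of type I receptors, such as those encoded by Bmpr1a and Bmpr1b, and type II receptors, such as that encoded by Bmpr2. The activated type I receptor phosphorylates the transcription factors Smad1, Smad5 and Smad9, which enter the nucleus with Smad4 and switch on targets such as the Id genes. Secreted antagonists such as noggin and chordin hold ligands away from their receptors. In the heart the pathway shapes cushions, chambers and the conduction system, and in the brain it acts in patterning and in the formation of glia and neurons.

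The promoters of the 2 ligands on which the results turn are shown first, because Bmp5 was the member that set the atria of the genotypes apart and Bmp10 the member that set the atria apart from every other tissue. RefSeq promoters of GRCm38.p6 were found for 7 of the 9 members. Each sequence below holds the 250 bases before the annotated start on the plus strand, chr9:75775115-75775364 for Bmp5 and chr6:87428744-87428993 for Bmp10, written 5′ to 3′ with each match to AGATAA, the letters bound by GATA factors, in capitals.
Bmp5: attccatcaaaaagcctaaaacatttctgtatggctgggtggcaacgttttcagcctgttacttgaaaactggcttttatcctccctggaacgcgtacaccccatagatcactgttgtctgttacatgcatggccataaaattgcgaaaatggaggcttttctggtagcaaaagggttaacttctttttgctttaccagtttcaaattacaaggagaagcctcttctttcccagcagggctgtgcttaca
Bmp10: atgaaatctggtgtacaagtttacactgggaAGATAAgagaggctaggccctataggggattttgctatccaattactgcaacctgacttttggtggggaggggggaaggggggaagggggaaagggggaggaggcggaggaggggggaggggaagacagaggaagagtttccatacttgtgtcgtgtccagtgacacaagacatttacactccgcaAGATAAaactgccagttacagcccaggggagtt
Bmp10 held 2 matches to AGATAA, beginning 219 and 33 bases before the start, and the other 6 members with a promoter held 0. Searched on both strands of the 300 bases around each start, this motif was present in 11.2% of 32851 mouse promoters. The letters TATAAA were present in 13.6% of promoters and in 1 of the 3 listed for Bmpr1b, and the E-box CAGCTG in 16.3% and in 2 of the 3 listed for Bmpr1b. GGCGCC, a core of BMP response elements, was present in 11.9% of promoters and in those of Bmpr1a and Bmpr2. A match describes letters in a window and not a bound site.

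In GRCm38 coordinates Bmp5 (ENSMUSG00000032179) lay at chr9:75775364-75900310 on the plus strand, 0.4295 Mb beyond the end of Gnb5. None of the other 8 members was on that chromosome. Bmp2 (ENSMUSG00000027358) was at chr2:133552159-133562885, Bmp4 (ENSMUSG00000021835) at chr14:46383520-46390669, Bmp6 (ENSMUSG00000039004) at chr13:38345107-38500302, Bmp7 (ENSMUSG00000008999) at chr2:172868012-172940321 and Bmp10 (ENSMUSG00000030046) at chr6:87428994-87437677. The receptor genes Bmpr1a (ENSMUSG00000021796), Bmpr1b (ENSMUSG00000052430) and Bmpr2 (ENSMUSG00000067336) were at chr14:34410734-34503341, chr3:141837136-142169425 and chr1:59763400-59879014. The exons of 4 members overlapped a gene on the other strand. Bmp5 shared 1878 bases with Gm26903, whose mean was at most 0.0324 CPM in any group, where CPM is a gene's count scaled to a common library total. Bmp6 shared 224 bases with Txndc5, which was itself abundant. The libraries were made with a stranded kit, but whether the counts kept the strands apart is not given in the sources used here.

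Between 29204390 and 48807435 reads were counted on genes per library. Levels are CPM with TMM factors, which rescale the library totals so that most genes agree between libraries. They are given as mean ± SD of 6 mice. Gnb5 itself followed the labels, falling from 33.4 CPM in Gnb5+/+ atria to 17.4 CPM in Gnb5+/- and 2.06 CPM in Gnb5-/- atria, and from 104 to 14.5 CPM in the cerebellum. Summed markers of the atria (Nppa, Sln, Myl7 and Myl4) ranged from 21738 to 39312 CPM in atrial libraries and from 130 to 489 CPM in ventricular ones. A few libraries stood apart from the rest of their groups, namely Gnb5-/- cerebellum replicate 2, Gnb5-/- cerebral cortex replicates 3 and 5 and Gnb5+/- ventricles replicate 4. By the rule used, a mean counted as moved when it shifted by more than 1 SD of its whole group. Leaving out 1 or 2 of 6 values cannot do that, so the rule says nothing about the weight of these libraries. Without Gnb5-/- cerebral cortex replicate 3 the mean of Bmpr1b there went from 21.3 to 23.2 CPM and that of Bmpr2 from 167 to 154 CPM.

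**Figure D1:**
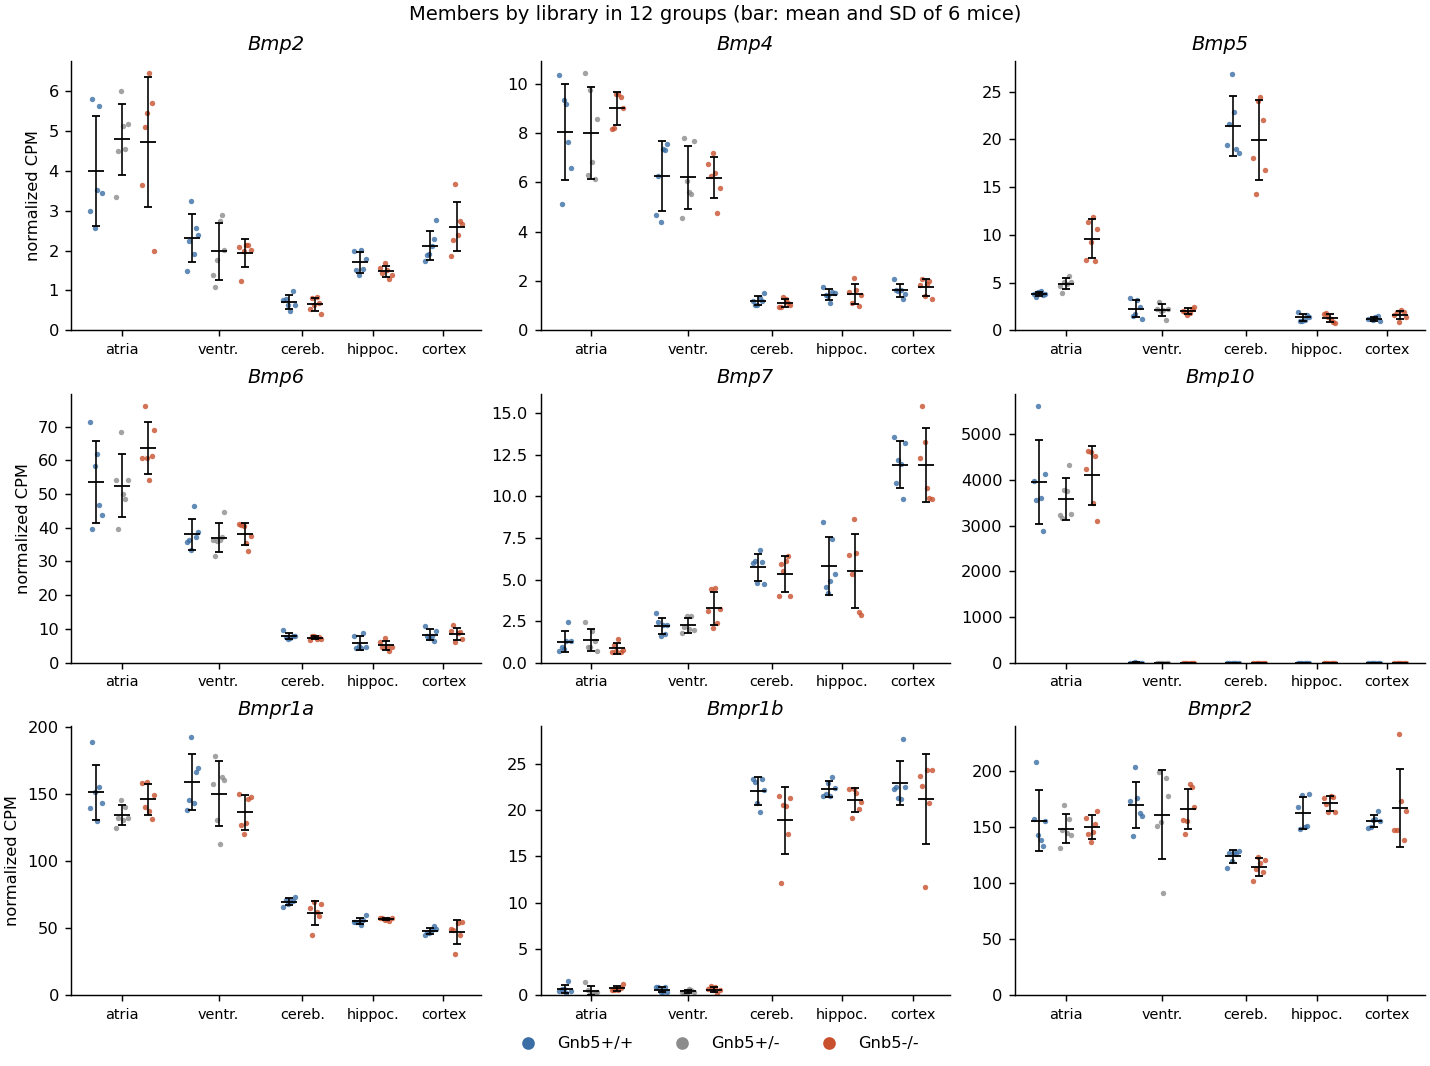
Normalized CPM of each member in 72 libraries, 1 panel a gene, with 6 mice a group, colours for genotype and a bar for the mean and SD. Bmp10 was high in atria, Bmp7 and Bmpr1b were higher in brain than in heart, and Bmp5 was highest in the cerebellum.

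Bmp5, a ligand close to Bmp6 and Bmp7 in sequence, was higher in Gnb5-/- atria than in the atria of both other genotypes. In Gnb5+/+ atria its level had a lowest value of 3.52, a median of 3.81 and a highest value of 4.16 CPM. In Gnb5+/- atria these values were 3.94, 4.94 and 5.73 CPM, and in Gnb5-/- atria 7.24, 9.90 and 11.9 CPM. Every Gnb5-/- library was therefore above every other atrial library, by at least 3.09 CPM over Gnb5+/+ and by at least 1.51 CPM over Gnb5+/- mice, while the Gnb5+/- and Gnb5+/+ values overlapped. The means were 3.82 ± 0.23, 4.87 ± 0.59 and 9.61 ± 2.00 CPM in Gnb5+/+, Gnb5+/- and Gnb5-/- atria, from 86 to 523 reads per library. The mean of the Gnb5-/- atria was 2.51 times that of the Gnb5+/+ and 1.97 times that of the Gnb5+/- atria, and both ratios rest on the same 6 Gnb5-/- libraries. On the log2 scale the fitted differences were 1.33 and 0.98, and 0.35 between Gnb5+/- and Gnb5+/+ atria. These values chose the list, so no test is given. Over all 16181 genes tested in the Gnb5-/- and Gnb5+/+ atria, groups did not overlap in 0.643% and 0.253% passed the test between genotypes, and between Gnb5-/- and Gnb5+/- atria groups did not overlap in 0.457%.

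In the other tissues of the same mice the groups of Bmp5 overlapped. In the ventricles Bmp5 was at 2.24 ± 0.90 CPM in Gnb5+/+ mice, at 2.11 ± 0.62 CPM in Gnb5+/- mice and at 1.99 ± 0.30 CPM in Gnb5-/- mice, with overlapping ranges. In the cerebellum it was at 21.4 ± 3.16 and 19.9 ± 4.18 CPM in Gnb5+/+ and Gnb5-/- mice, and in the hippocampus at 1.34 ± 0.39 and 1.29 ± 0.42 CPM. In the cerebral cortex, at 1.22 ± 0.21 and 1.60 ± 0.43 CPM, 5 of the 6 Gnb5-/- values exceeded the average Gnb5+/+ value. The log2 difference between Gnb5-/- and Gnb5+/+ mice was -0.18 in ventricles, -0.10 in cerebellum, -0.06 in hippocampus and 0.41 in cerebral cortex. None of these passed the quasi-likelihood test of edgeR over all genes, with an adjusted p of 0.474 in the cortex and at least 0.727 in the others, and the two-sided exact permutation p of single tests was between 0.115 and 0.760. Over all genes, groups of Gnb5-/- and Gnb5+/+ mice did not overlap in 0.545% in ventricles, 1.11% in cerebellum, 0.608% in hippocampus and 0.534% in cortex, and 0 of the 9 members were among them. The 95% intervals of Bmp5 reached up to 0.35, 0.20, 0.44 and 0.83 in the same order.

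**Figure D2:**
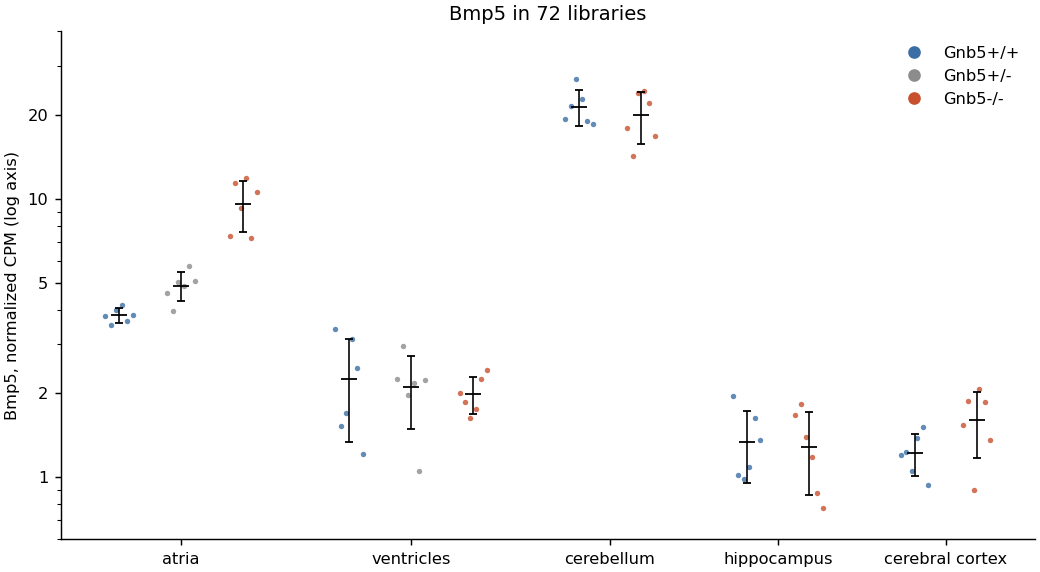
Bmp5 in normalized CPM on a log axis by tissue and genotype, 1 point a mouse, with bars for the mean and SD of 6. The Gnb5-/- atria, from 7.24 to 11.9 CPM, lie above all other atrial libraries, and the groups of every other tissue overlap.

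Other cell types in the atria were examined beside Bmp5. Summed markers of the sinoatrial and atrioventricular node (Hcn4, Shox2, Isl1 and Tbx3) ranged from 17.3 to 49.3 CPM in Gnb5+/+, from 32.6 to 66.3 CPM in Gnb5+/- and from 12.4 to 71.0 CPM in Gnb5-/- atria, with medians of 21.7, 52.0 and 45.5 CPM. The ranges overlapped, both medians of mutant mice were above that of Gnb5+/+ mice, and all 4 markers were detected in each genotype. Fibroblast markers (Pdgfra, Col1a1 and Tcf21) had medians of 297, 296 and 266 CPM in Gnb5+/+, Gnb5+/- and Gnb5-/- atria, and those of the epicardium (Wt1, Upk3b, Msln and Krt19) medians of 296, 287 and 321 CPM. The sum over blood markers had medians of 3047, 3628 and 3958 CPM, with 1 Gnb5-/- library at 9810 CPM. The sum over adipocyte markers (Adipoq, Cfd, Plin1 and Cidec) varied widely, from 6.34 to 28.6 CPM in Gnb5+/+, from 26.0 to 82.8 CPM in Gnb5+/- and from 5.85 to 343 CPM in Gnb5-/- atria. The part of any of these cells in the Bmp5 values was not tested.

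Between tissues the same genes differed widely. In the 5 tissues of the 6 Gnb5+/+ mice, fitted together with the mouse as a block, 5 of the 8 members other than Bmp5 passed the test between atria and ventricles, where 53.6% of 19477 genes did. Bmp5 is left out of counts with the atria, since its atrial values chose the list. Between atria and cerebellum 8 of 8 passed, against 87.3% of all genes, and between ventricles and cerebellum 9 of 9, against 87.3%. Against the hippocampus and the cortex 7 and 7 of the 8 passed in the atria, with a background of 87.6% and 88.1%, and 7 and 7 of 9 in the ventricles, with 87.8% and 88.3%. Within the brain 5 members passed between cerebellum and hippocampus (70.8% of all genes), 5 between cerebellum and cortex (71.8%) and 3 between hippocampus and cortex (37.7%). With most genes differing between tissues, the size and order of the differences say more than the number that passed. Scaling moved these levels: against plain CPM, TMM raised the ventricles by 1.13 log2 units and the atria by 0.60 relative to the brain, and the ventricles by 0.53 relative to the atria. Of the 67 fitted differences past the threshold, those of Bmp5 with the atria included, 4 changed direction with plain CPM, and they are named below.

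Bmp10, a ligand made by heart muscle and needed for trabeculation of the embryonic chambers, was abundant in atria and near absent elsewhere. In Gnb5+/+ atria it had a lowest value of 2881, a median of 3791 and a highest value of 5614 CPM. In Gnb5+/+ ventricles 5 libraries were between 0 and 0.275 CPM and replicate 3 stood at 16.6 CPM, on 303 of the group's 313 reads. In plain CPM, Bmp10 was 2146-fold higher in Gnb5+/+ atria than in Gnb5+/+ ventricles, with a counting interval of 1921 to 2405. Without replicate 3, left out after its value was seen, the ratio was 56623-fold, from 30789 to 118077. Atrial markers summed to 311 CPM in that library and to between 130 and 327 CPM in the other 5, and the part of atrial tissue in its Bmp10 value was not tested. In the brain 0 to 4 Bmp10 reads were counted per group of 6 libraries. The Gnb5+/+ cerebellum and cortex held 0 reads each, which put the atria at least 289146-fold and 283315-fold higher in plain CPM with 3 reads over the group as the floor. The intervals and floors cover counting error only.

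Bmp6, which in the liver drives the iron hormone hepcidin, was the next most abundant ligand of the heart. Its lowest, median and highest levels were 39.6, 52.6 and 71.3 CPM in Gnb5+/+ atria and 33.3, 36.8 and 46.5 CPM in Gnb5+/+ ventricles. All brain values were below these, with medians of 7.77 CPM in cerebellum, 4.74 CPM in hippocampus and 7.95 CPM in cortex. The atria exceeded the ventricles by 0.53 ± 0.14 log2 units (SE, adjusted p = 0.00228), and the ventricles exceeded the cortex by 2.17 ± 0.15 (adjusted p = 8.64e-14). Cortex and cerebellum did not differ beyond their spread (adjusted p = 0.957), and the cerebellum was above the hippocampus by 0.52 ± 0.15 (adjusted p = 0.00321). The hippocampal libraries Gnb5+/+ replicates 1 and 5 held 8.01 and 8.83 CPM of Bmp6 and 8.48 and 7.42 CPM of Bmp7, against at most 4.81 and 5.32 CPM in the other 4. Among the 12 hippocampal libraries replicate 5 also had the highest sum of choroid plexus markers (Ttr, Kl, Folr1, Clic6 and Kcnj13), 1185 CPM against at most 421, and replicate 1 the highest sum of markers of the meninges, 103 CPM against at most 89.1. Their part in these values was not tested.

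Bmp2 and Bmp4, which act in valve formation and in mesoderm, had their highest levels in the atria. Bmp4 had a median of 8.41 CPM in Gnb5+/+ atria, with values from 5.11 to 10.3, and a median of 6.78 CPM in ventricles, from 4.39 to 7.56. The 2 ranges overlapped, and the difference of 0.40 ± 0.16 log2 units passed narrowly (adjusted p = 0.0394). It was 0.34 log2 units and did not pass with DESeq2 (adjusted p = 0.0873), with RLE factors (0.0710) or with the 2 tissues fitted alone (0.160). The ventricles exceeded the cortex by 1.93 ± 0.17 (adjusted p = 3.13e-11), while cortex, hippocampus and cerebellum, at 1.62 ± 0.27, 1.45 ± 0.22 and 1.20 ± 0.19 CPM, did not differ as neighbours. Bmp2 was at 3.99 ± 1.39 CPM in atria and 2.31 ± 0.60 CPM in ventricles, a difference of 0.81 ± 0.19 log2 units (adjusted p = 0.0008). Ventricles, cortex and hippocampus were neighbours that did not differ, and the cerebellum was lowest, at 0.709 ± 0.168 CPM and 1.23 ± 0.20 log2 units below the hippocampus (adjusted p = 3.28e-06). With plain CPM the ventricles, at 1.44 CPM of Bmp2, were below the cortex, at 2.81, and the hippocampus, at 2.22. Bmp2 was lowest in the tissue where Bmp5 was highest.

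Among the tissues Bmp5 was highest in the cerebellum. Among Gnb5+/+ mice its lowest, median and highest values were 18.6, 20.5 and 26.9 CPM in the cerebellum, above every library of every other tissue. The fitted level of the cerebellum was 2.55 ± 0.16 log2 units above that of the atria, next in order, and that of the atria 0.86 ± 0.18 above that of the ventricles (SE). The Gnb5+/+ atrial values of Bmp5 entered the contrast that chose the list, so both are given without a test. The ventricles were above the hippocampus by 0.66 ± 0.19 (adjusted p = 0.00259) and above the cortex by 0.81 ± 0.19 (adjusted p = 3.82e-04) with TMM, but below both with plain CPM. Hippocampus and cortex did not differ (adjusted p = 0.551). Even in Gnb5-/- atria, where it was highest in the heart, the level of Bmp5 did not reach that of any cerebellar library.

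Bmp7, a ligand of kidney and eye development that is also found in the meninges, ran the other way, higher in brain than in heart. In Gnb5+/+ cortex it had a lowest value of 9.84, a median of 12.1 and a highest value of 13.5 CPM, and in Gnb5+/+ atria 0.694, 1.14 and 2.44 CPM. The cortex exceeded the hippocampus by 1.06 ± 0.17 log2 units (adjusted p = 9.38e-06). Hippocampus and cerebellum, at 5.81 ± 1.74 and 5.74 ± 0.83 CPM, did not differ (adjusted p = 0.741). The cerebellum was above the ventricles by 1.49 ± 0.20 (adjusted p = 7.52e-08), and the ventricles were above the atria by 0.78 ± 0.23 (adjusted p = 0.00592). Bmp7 was the only 1 of the 6 ligands with less RNA in atria than in ventricles among Gnb5+/+ mice.

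The receptors were more even than the ligands, apart from Bmpr1b. Bmpr1b, a type I receptor known from cartilage and the nervous system, was at 22.1 ± 1.49, 22.3 ± 0.84 and 22.9 ± 2.42 CPM in Gnb5+/+ cerebellum, hippocampus and cortex, which did not differ. In atria it was at 0.646 ± 0.445 CPM and in ventricles at 0.588 ± 0.293 CPM, from 6 to 42 reads per library. The cerebellum exceeded the atria by 5.19 ± 0.18 log2 units (adjusted p = 1.11e-20), and no heart library reached a brain library.

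Bmpr1a, the broadly expressed type I receptor, was higher in heart than in brain with TMM. Its lowest, median and highest values were 138, 156 and 192 CPM in Gnb5+/+ ventricles and 130, 147 and 189 CPM in atria, which did not differ (adjusted p = 0.827). The atria exceeded the cerebellum by 1.06 ± 0.067 log2 units (adjusted p = 1.74e-14), the cerebellum exceeded the hippocampus by 0.39 ± 0.067 (adjusted p = 7.14e-06) and the hippocampus exceeded the cortex by 0.22 ± 0.067 (adjusted p = 0.00911). With plain CPM the ventricles, at 99.1 CPM of Bmpr1a, were level with the cerebellum, at 98.5, and below the atria, at 127. Bmpr2, the type II receptor in which mutations cause pulmonary arterial hypertension, varied least with TMM. It was at 170 ± 20.5, 163 ± 14.5, 156 ± 27.2 and 155 ± 5.37 CPM in ventricles, hippocampus, atria and cortex, which did not differ as neighbours. The cerebellum, at 124 ± 5.77 CPM, was 0.26 ± 0.083 log2 units below the cortex (adjusted p = 0.00758). With TMM it was also below atria and ventricles, but with plain CPM it was above both, at 175 CPM against 131 and 106 CPM. The hippocampus, at 212 CPM, and the cortex, at 206, were then higher still, and RLE scaling also placed the hippocampus above the ventricles and the cortex above the atria.

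**Figure D3:**
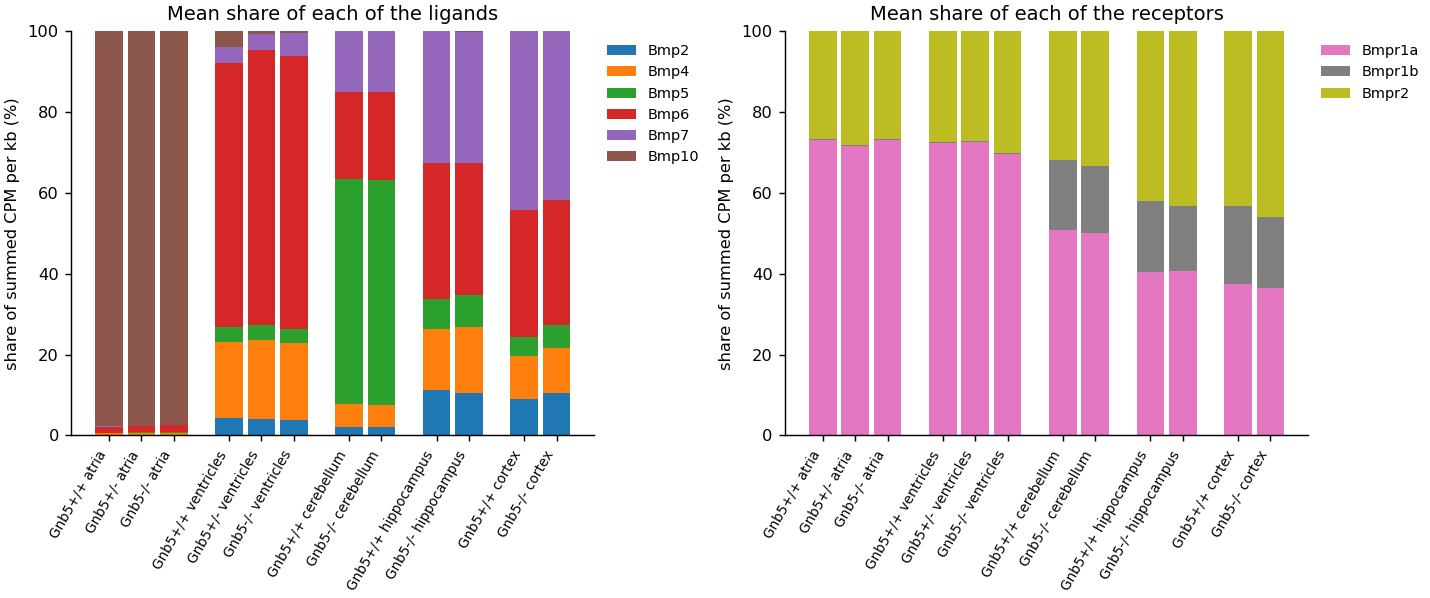
Mean share (%) of each ligand (left) and each receptor (right) in the summed CPM per kilobase of exons, 1 column for each of the 12 groups of 6 mice. Bmp10 fills 97.7% of the ligand sum in Gnb5+/+ atria, Bmp6 leads in ventricles and Bmp5 in the cerebellum, and Bmpr1b is visible in brain columns.

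Per kilobase of exons, which allows levels of different genes to be compared, the leading ligand differed between atria, ventricles, cerebellum and cortex. In the hippocampus Bmp6, which also led in ventricles, and Bmp7 did not differ beyond their spread. The 6 ligands summed to 902 ± 205 CPM per kilobase in Gnb5+/+ atria, of which Bmp10 made up 97.7% ± 0.54. In Gnb5+/+ ventricles the sum was 14.9 ± 1.40, and Bmp6 made up 65.4% ± 6.00 and Bmp4 18.7% ± 4.06. In the cerebellum Bmp5 made up 55.7% ± 5.10 of a sum of 9.52 ± 0.61. Cortex and hippocampus had no such majority. In the cortex Bmp7 held 44.2% ± 1.61 and Bmp6 31.5% ± 2.41 of 6.72 ± 0.79 CPM per kilobase, and in the hippocampus Bmp6 held 33.6% ± 3.88 and Bmp7 32.6% ± 1.96 of 4.4 ± 1.1. The place of Bmp5 in the atria was small in every genotype, with 0.109% ± 0.020 of the ligand sum in Gnb5+/+ atria, 0.148% ± 0.012 in Gnb5+/- atria and 0.264% ± 0.086 in Gnb5-/- atria.

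Among the 3 receptors Bmpr1a made up 73.1% ± 1.93 of the sum per kilobase in Gnb5+/+ atria and 72.3% ± 2.5 in ventricles. It made up 50.8% ± 0.62 in cerebellum, 40.5% ± 1.31 in hippocampus and 37.5% ± 0.67 in cortex. The share of Bmpr1b rose from 0.331% ± 0.230 in atria and 0.296% ± 0.163 in ventricles to 17.2% ± 1.22, 17.4% ± 0.86 and 19.2% ± 1.19 in the 3 brain regions. Bmpr2 took the remainder, from 26.6% ± 2.12 in atria to 43.3% ± 0.97 in cortex. Shares within a library do not depend on how libraries were scaled.

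Genotype was compared outside the contrast that chose the list for 8 members in each tissue. Bmp10 had too few reads outside atria, and no test of Bmp5 is given in atria, where its values chose the list. Between Gnb5-/- and Gnb5+/+ mice 0 of 8 passed in ventricles, where 0.188% of all genes did, and 0 of 8 in cerebellum, hippocampus and cortex, with 0.0817%, 0.165% and 0.0557% of all genes. Between Gnb5+/- and Gnb5+/+ mice 0 of 8 passed in atria and ventricles, with 0.0124% and 0.0202% of all genes, and between Gnb5-/- and Gnb5+/- mice 0 of 8 in both, with 0.0494% and 0.0874%. With so few genes called anywhere, counts of 0 were near the background. At an unadjusted p under 0.05, edgeR gave Bmpr1a in Gnb5+/- atria and Bmp7 in ventricles, the latter against both other genotypes, and DESeq2 called 0 members in these comparisons, with Bmp6 between Gnb5-/- and Gnb5+/- atria and Bmp5 in the cortex as further members at an unadjusted p under 0.05. The Gnb5-/- atria enter both the contrast that chose the list and that with Gnb5+/- mice.

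**Figure D4:**
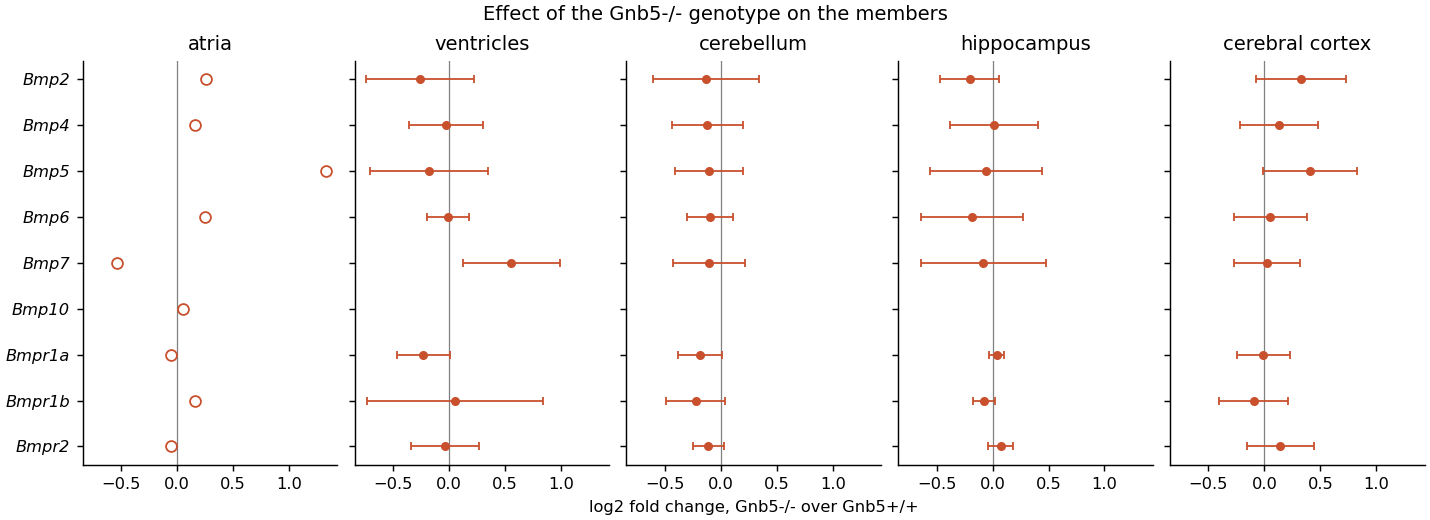
Log2 fold change of each member in Gnb5-/- over Gnb5+/+ mice, 1 panel a tissue. Filled points carry 95% intervals from edgeR, open points in atria are values without a test, and Bmp10 had too few reads elsewhere. Bmp5 in atria, at 1.33, lies farthest from 0.

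Bmp7 had the widest of these differences in ventricles and, in the opposite direction, between Gnb5-/- and Gnb5+/- atria, at -0.67 log2 units (adjusted p = 1.00 in edgeR), and its groups overlapped in both. Its lowest, median and highest ventricular values were 1.59, 2.25 and 2.97 CPM in Gnb5+/+, 1.77, 2.08 and 2.83 CPM in Gnb5+/- and 2.09, 3.15 and 4.48 CPM in Gnb5-/- ventricles. Against Gnb5+/+ mice the difference was 0.56 ± 0.21 log2 units (adjusted p = 0.786), with 5 of the 6 Gnb5-/- values higher than the average Gnb5+/+ value, and the two-sided exact permutation p was 0.0476, or 0.314 adjusted over the 33 single tests. Bmpr1a in the same tissue was at 136 ± 13 CPM in Gnb5-/- against 159 ± 20.8 CPM in Gnb5+/+ mice, and 0 of the 6 Gnb5-/- values exceeded the average Gnb5+/+ value (p = 0.0433 by exact permutation, adjusted 0.314).

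In the cerebellum the fitted differences of all 8 members were below 0, from -0.23 to -0.10 log2 units with a median of -0.12, and none passed. The 3 receptors gave the lowest p-values of single members there. Bmpr1a was at 61.3 ± 8.84 against 69.6 ± 2.61 CPM, Bmpr1b at 18.9 ± 3.62 against 22.1 ± 1.49 CPM and Bmpr2 at 114 ± 7.73 against 124 ± 5.77 CPM in Gnb5-/- and Gnb5+/+ mice. No Gnb5-/- value of any of them was above the Gnb5+/+ mean, and the ranges overlapped. The exact permutation p was 0.0195, 0.0390 and 0.0433, or 0.314 adjusted for each, and edgeR gave an adjusted p of 0.583 for each. Gnb5-/- replicate 2, which stood apart, was lowest for Bmpr1a (44.8 CPM) and Bmpr1b (12.2 CPM). It held 629 CPM of choroid plexus markers, against 9.55 to 14.7 CPM in Gnb5+/+ cerebellum. The skeletal muscle list (Acta1, Myh4, Myh1, Pvalb and Mybpc2) summed to 1183 CPM in it, against 247 to 281 CPM in Gnb5+/+ cerebellum. Of those 5 genes 3 had a mean below 0.1 CPM in both genotypes, and whether muscle was present was not tested. Without replicate 2 the log2 difference went from -0.18 to -0.11 for Bmpr1a, from -0.23 to -0.13 for Bmpr1b and from -0.11 to -0.11 for Bmpr2. In the hippocampus Bmpr1a and Bmpr2 leaned upward, where 6 of the 6 Gnb5-/- values of each exceeded the average Gnb5+/+ value, by 0.04 and 0.08 log2 units on average (p = 0.169 and 0.203 by exact permutation). Of the 33 single tests 5 gave a p under 0.05, none did after adjustment, and 6 mice against 6 allow no p below 0.00216.

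The other ligands of the atria are given by genotype as a description. Bmp10 was at 3961 ± 917, 3585 ± 454 and 4102 ± 650 CPM in Gnb5+/+, Gnb5+/- and Gnb5-/- atria, and its ranges overlapped. In the same order Bmp6 was at 53.7 ± 12.2, 52.5 ± 9.41 and 63.7 ± 7.70 CPM, and Bmp4 at 8.03 ± 1.95, 8.0 ± 1.85 and 9.01 ± 0.67 CPM. All 6 Gnb5-/- values of both were above the Gnb5+/+ mean, and all ranges overlapped. Bmp2 was at 3.99 ± 1.39, 4.79 ± 0.89 and 4.73 ± 1.63 CPM. The other 8 members ranged from -0.54 (Bmp7) to 0.25 (Bmp2) on the log2 scale between Gnb5-/- and Gnb5+/+ atria, against 1.33 for Bmp5.

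Whether the Gnb5-/- effect differed between tissues was tested as an interaction over 48 libraries of the ventricles and the 3 brain regions, with each mouse as a block. None of 8 members passed in any of the 6 pairs of tissues in edgeR, which was the tool used for this test. Over all genes 0.0900% passed between ventricles and cerebellum, 0.0950% between ventricles and hippocampus, 0.160% between ventricles and cortex, 0.0300% between cerebellum and hippocampus, 0.0200% between cerebellum and cortex and 0.00% between hippocampus and cortex. At an unadjusted p under 0.05 up to 2 members stood in a pair. Bmp7 was among them in each of the 3 pairs with ventricles, where its effect was 0.57 to 0.68 log2 units larger than in the brain regions. The atria were left out of this test, because their contrast chose the list.

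The rest of the BMP pathway was read from a list of 48 genes, 47 of which were found in the annotation. Outside the contrast that chose the list, 0 of the 34 to 40 genes tested passed between genotypes in any tissue in edgeR, and 0 in DESeq2. In edgeR unadjusted p-values under 0.05 numbered 0 in the ventricles of Gnb5-/- against Gnb5+/+ mice and 2, 4 and 2 in cerebellum, hippocampus and cortex, of 34, 36, 39 and 40 genes. Over all genes they numbered 711 of 14866, 1003 of 17139, 1355 of 17588 and 1327 of 17967. For the list the median log2 difference between Gnb5-/- and Gnb5+/+ atria was 0.04, where it was 0.00014 over all genes. It was -0.03 in ventricles and -0.05, -0.02 and -0.04 in the 3 brain regions, against -0.0059, 0.00041, 0.00018 and 0.0058 over all genes.

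Between heart chambers, in contrast, the pathway differed widely. In Gnb5+/+ mice 25 of 43 genes tested were higher in atria than in ventricles and 5 were lower, with a median of 0.58 log2 units, where 6029 of 19477 genes were higher, 4415 were lower and the median was 0.07. Of the genes grouped by name as other ligands, a group that includes Bmp1, 4 of 7 were higher in atria. Among them were Bmp3 by 6.21 ± 0.27 (24.7 against 0.312 CPM), Gdf7 by 5.04 ± 0.39 (3.39 against 0.0969 CPM) and Gdf2, the ligand BMP9 of the circulation, by 3.55 ± 0.26 (3.24 against 0.290 CPM). Of the secreted antagonists and modulators 10 of 12 were higher in atria and 1, Nog (noggin), was lower, at 0.0756 against 0.188 CPM. Both levels of Nog are near 0 and rest on few reads per library. Chrdl1 and Chrdl2, relatives of chordin, exceeded the ventricles by 2.60 ± 0.20 and 3.91 ± 0.49, and Fstl1 by 1.02 ± 0.11.

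Receptors and co-receptors split, with 3 of 8 higher and 2 lower in atria. Eng (endoglin), a co-receptor of endothelium that binds the ligands BMP9 and BMP10, was higher by 1.15 ± 0.12, while Acvrl1, the type I receptor for the same ligands, was lower by 0.36 ± 0.095 (33.8 against 44.7 CPM). TMM itself raised the ventricles by 0.53 log2 units relative to the atria, more than the difference of Acvrl1, whose direction may therefore depend on the scaling. Counts and small differences between the chambers share this limit. Acvr1 was higher by 0.88 ± 0.063. Among Smads and their regulators 3 of 8 were higher and 1 was lower. Those higher were the inhibitory Smad6 and Smad7, by 1.74 ± 0.16 and 1.32 ± 0.093, and the signalling Smad9, by 1.68 ± 0.11, while the ubiquitin ligase gene Smurf2 was lower. The shared partner Smad4 and the signalling Smad1 and Smad5 did not pass.

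Of 8 target genes 5 were higher in atria and 1, Msx1, was lower. Hamp, which encodes hepcidin, showed the widest difference of the list, 75.6 against 0.830 CPM or 6.56 ± 0.19 log2 units. Id2 was higher by 2.10 ± 0.10, Id4 by 1.08 ± 0.13, Id3 by 0.58 ± 0.14 and Atoh8 by 1.10 ± 0.18, and Id1 did not pass. Against the cerebellum, hippocampus and cortex 5, 8 and 8 of the 8 Smads and regulators were higher in atria and 2, 0 and 0 were lower, with medians of 0.58, 0.90 and 1.05 log2 units. Over all 19477 genes 7791, 7903 and 7975 were higher, and the medians were -0.18, -0.16 and -0.15. TMM itself moved the atria by 0.60 against the brain, as given above, so medians of this size depend on the scaling.

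**Figure D5:**
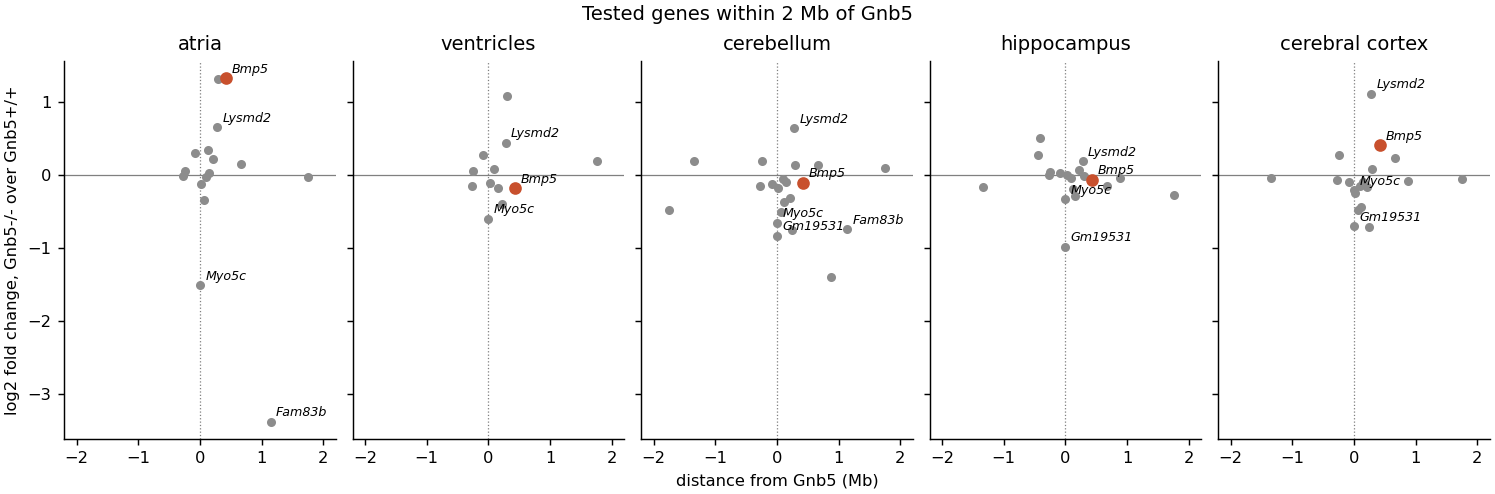
Log2 fold change in Gnb5-/- over Gnb5+/+ mice of the tested genes within 2 Mb of Gnb5, by distance from Gnb5 in Mb, 1 panel a tissue, with Bmp5 in colour. In atria Bmp5 and Lysmd2 lie above 0, and Myo5c and Fam83b below.

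The neighbourhood of Bmp5 on the chromosome was described from the 68 genes whose bodies lie within 2 Mb of Gnb5, of which 16 were tested in atria. The contrast that chose the list also holds the values of these genes, so they are given without a test. The first 3 below were picked by their values, as the neighbours other than Bmp5 that edgeR called in that contrast. Myo5c, a myosin gene next to Gnb5, was at 7.14 ± 1.93, 4.98 ± 0.78 and 2.51 ± 0.73 CPM in Gnb5+/+, Gnb5+/- and Gnb5-/- atria. Lysmd2, which lies between Gnb5 and Bmp5, was at 13.6 ± 1.91, 17.4 ± 1.5 and 21.5 ± 2.26 CPM, and Fam83b, on the far side of Bmp5, at 0.594 ± 0.251, 0.298 ± 0.144 and 0.0515 ± 0.0373 CPM. Scg3, between Lysmd2 and Bmp5 and named after its value was seen, had a fitted difference of 1.32 ± 0.34 log2 units (SE), near that of Bmp5. In the first 3 the Gnb5+/- mean lay between the others, as it did for Bmp5. The mean of Lysmd2 was higher in Gnb5-/- than in Gnb5+/+ atria, like that of Bmp5, and those of the other 2 were lower.

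Between Gnb5-/- and Gnb5+/+ mice 0 of 12 neighbours passed in ventricles and 0 of 21 in cerebellum in edgeR. In hippocampus 1 of 19 passed and in cortex 0 of 19. DESeq2 called 1 of 28, 2 of 37, 3 of 38 and 0 of 39 in the same order. These were Wdr72 in ventricles, Myo5c and Hcrtr2 in cerebellum, and Gm19531, Tmod3 and Lysmd2 in hippocampus. Over all genes edgeR called 28 of 14866, 14 of 17139, 29 of 17588 and 10 of 17967. DESeq2 called 63 of 28295, 52 of 31015, 110 of 32291 and 34 of 32983 genes. Among the neighbours unadjusted p-values under 0.05 in edgeR numbered 6, 5, 5 and 2. Over all genes they numbered 711 of 14866, 1003 of 17139, 1355 of 17588 and 1327 of 17967. The gene that edgeR called in the hippocampus was Gm19531, at 1.44 ± 0.37 CPM in Gnb5+/+ and 0.732 ± 0.097 CPM in Gnb5-/- mice. It is an antisense gene within Gnb5 whose reads cannot be told apart from those of Gnb5 without strand. Between Gnb5+/- and Gnb5+/+ mice 0 neighbours passed in atria by either tool, with 5 at an unadjusted p under 0.05. Over all genes edgeR called 2 of 16181 and DESeq2 8 of 29882, and 1169 of 16181 had an unadjusted p under 0.05 in edgeR. Between Gnb5-/- and Gnb5+/- atria, which share the Gnb5-/- libraries with the contrast above, no test of Bmp5 is given, and of the other neighbours edgeR called 0 and DESeq2 called 2, Myo5c and Fam83b. Over all genes edgeR called 8 of 16181 and DESeq2 27 of 29882 there.

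For each member the genes of most similar pattern were named by Pearson's r over the 12 group means of log2 CPM among 16847 genes. The 12 groups share mice and differ mainly by tissue, so any gene of 1 tissue finds close partners, and the values are a description. Bmp10 was closest to Fcamr (r = 0.999) and Mlana (0.999), and Bmp5 to Zfp219 (0.981) and Nfkbie (0.980). Bmp4 was closest to Kcnj5 and Islr (0.999 and 0.998), Bmp6 to Emp3 and Ifih1 (0.998 and 0.998), Bmp2 to Hk3 and Gm30648 (0.994 and 0.987) and Bmp7 to Lin28b and Gm3510 (0.985 and 0.984). The receptors Bmpr1a, Bmpr1b and Bmpr2 were closest to Cdkal1 (0.995), Clgn (0.999) and Kcnip2 (0.960). Bmpr2, the member that varied least between tissues with TMM, had the loosest match.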

How the data were processed

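Total RNA depleted of ribosomal RNA was sequenced from 72 tissue samples of 18 mice as single-end reads. According to the study's methods and the submitters' processing notes, the authors trimmed reads with cutadapt 1.8, aligned them with STAR 2.5.3a to GRCm38 and counted reads per gene with htseq-count (HTSeq 0.9.1). The deposited values are raw counts per gene, not normalized. The study's methods name a stranded library kit (TruSeq Stranded), but the strand setting of the counting is not given in the sources used here. Nor is it given how gene families with shared reads were treated. Between 28.5% and 51.5% of the reads in a file stood in 5 rows that name no gene, which were left out. Of 53715 gene identifiers 53620 were matched to a symbol.

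Counts were tested with the quasi-likelihood test of edgeR 4.0.16 (R 4.3.3) with TMM factors, the filter of filterByExpr at a count minimum of 10 and Benjamini-Hochberg adjustment over all genes. A gene was called at an adjusted p below 0.05. Genotype was fitted in each tissue, tissue in the 30 Gnb5+/+ libraries with the mouse as a block, and the difference of genotype effects between tissues in 48 libraries with the mouse as a block. For single values an exact permutation test, two-sided, was run over 924 divisions of 6 mice against 6. Levels are TMM-normalized CPM, and levels per kilobase use the length of the union of exons. Shares and sums of reads carry 95% Poisson intervals where given, and a group at 0 was set to a floor of 3 reads over the group. The procedure was tested on simulated counts.

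The members and the lists of pathway, marker and neighbouring genes were chosen with earlier results of these data known. Named genes were the 9 members, the called genes of the pathway list and of the neighbours within 2 Mb of Gnb5, the 2 genes most like each member over the 12 group means among genes of at least 1 CPM in a group, and Gnb5. Alternatives were DESeq2 1.42.0, RLE and total-count scaling, no filter on low counts, fits with and without a block on the replicate number, fits of only the groups compared, and leaving out Gnb5-/- cerebellum replicate 2 or cerebral cortex replicate 3. Leaving out the other libraries that stood apart, or Gnb5+/+ ventricles replicate 3 for Bmp10, was chosen after seeing the data.

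Replicate numbers of different genotypes belong to different mice. Deviations of same-numbered samples from their group means correlated between -0.20 and 0.095, so these numbers pair no samples between genotypes. Within a genotype the number joins tissues of 1 mouse.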

Additional observations from a re-analysis of the deposited data

Results flagged for a closer look

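A sample far from the other 5 of its group was looked for by Dixon's ratio in 104 groups of 6 values, and 12 were past the critical value, where chance flags about 1 in 20. All 12 are given as values.

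Bmp10 in Gnb5+/+ ventricles replicate 3 was at 16.6 CPM against at most 0.275 CPM in the others, and the group mean went from 2.86 to 0.104 CPM without it. Bmp10 was at 1.45 CPM in Gnb5+/- ventricles replicate 1 (others at most 0.456) and at 0.0589 CPM in Gnb5-/- hippocampus replicate 4 (others at most 0.0159).

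Among the other ligands, Bmp2 was low in Gnb5-/- ventricles replicate 2, at 1.24 CPM with the others between 1.98 and 2.15. Bmp6 was at 9.81 CPM in Gnb5+/+ cerebellum replicate 1, with the others between 7.10 and 7.84. Bmp7 was at 2.44 CPM in Gnb5+/+ atria replicate 5, with the others between 0.694 and 1.33, and the mean went from 1.27 to 1.03 CPM without it.

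Bmpr1b was at 1.49 CPM in Gnb5+/+ atria replicate 5 (others at most 0.654), at 1.46 CPM in Gnb5+/- atria replicate 1 (others at most 0.532) and at 27.7 CPM in Gnb5+/+ cerebral cortex replicate 5 (others at most 22.6). In Gnb5-/- cerebral cortex replicate 3, a library that stood apart, Bmpr1b was at 11.7 CPM (others at least 20.8) and Bmpr2 at 233 CPM (others at most 174). Bmpr2 was at 208 CPM in Gnb5+/+ atria replicate 2, with the others between 133 and 158.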

How the results depend on the processing

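No difference between tissues that was called changed direction under DESeq2, RLE scaling, no filter on low counts or fits of only the 2 tissues. With plain CPM 4 of the 67 past the threshold did. They were Bmp5 between ventricles and hippocampus or cortex, and Bmpr2 between cerebellum and atria or ventricles. Differences that were not called turned as well. In the cortex the lowest member difference between genotypes went from -0.10 to 0.01 without Gnb5-/- replicates 3 and 5, and that of Bmpr2 from 0.14 to -0.01 without replicate 3. The difference of Bmp4 between atria and ventricles lost its call under DESeq2, RLE scaling and the fit of the 2 tissues alone, at 0.34 log2 units in each. Single members with an exact permutation p under 0.05 numbered 5 of 33, and 3 with plain CPM. Without the libraries that stood apart 0 of 27 group means moved by over 1 SD. Leaving out 1 or 2 values of a group cannot move its mean that far, so that count was fixed in advance. Plain CPM moved 70 of 109 group means by over 1 SD and RLE scaling 2 of 109. The cause was not tested.

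With a block on the replicate number 0 members were called between genotypes in each of 8 comparisons, as without it, and Bmp5 differed by 1.32 log2 units between Gnb5-/- and Gnb5+/+ atria. Correlations of same-numbered samples ran from -0.20 to 0.095. Without the block on the mouse the number of members called between tissues was the same for all 10 pairs.

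Few reads limit Bmp10 outside atria and Bmpr1b in the heart, where differences between genotypes would be hard to detect at this depth.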

Other observations

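In the Gnb5-/- hippocampus Bmp7 spread widely, from 2.87 to 8.62 CPM with a median of 5.92 CPM, and no library was flagged by Dixon's ratio. Replicate 3 held 8.62 CPM, the highest of the 12 hippocampal libraries, with marker sums of 55.5 CPM for the choroid plexus and 80.2 CPM for the meninges, neither of which was the highest of its group. The part of these cells in its value was not tested.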
